A study of Mus musculus with 34 samples.

Results

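Mouse embryos carrying injected mRNA for a mutant form of the checkpoint kinase CHK1, labelled R442Q, were compared between the late 2-cell stage and the blastocyst. The comparison used 12 of the 34 single-embryo libraries of the study, chosen by their labels: 5 late 2-cell embryos and 7 blastocysts. The late 2-cell embryos were labelled as untreated after injection, whereas the 7 blastocysts had grown in medium with a CHK1 inhibitor at 30 nM. The 6 untreated R442Q zygotes served as an earlier point of reference. The embryos injected with wild-type (WT) CHK1 mRNA, 4 untreated late 2-cell embryos and 7 blastocysts with the same inhibitor, served to test whether the change differed between genotypes. The labels name no alteration of the embryos' own Chek1 gene, so both genotypes are overexpression models, and no R442Q blastocyst without inhibitor was analysed here. Stage, inhibitor and deposited table changed together and cannot be told apart, so "rose" and "fell" below mean higher or lower in inhibitor-treated blastocysts than in untreated late 2-cell embryos. Each library was 1 embryo. The labels do not say whether embryos shared a litter or an injection day, so the p-values measure only the spread between these embryos.

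The mouse embryo starts from transcripts stored in the oocyte. These are broken down while the embryonic genome becomes active, with a major wave at the late 2-cell stage that includes short-lived transcripts such as those of the Zscan4 family. By the blastocyst stage, cells have formed the trophectoderm, an outer epithelium that pumps fluid into the cavity and later builds the placenta, and an inner cell mass that holds the epiblast and the primitive endoderm. CHK1 restrains entry into mitosis while DNA is incompletely replicated or damaged, by keeping the kinase CDK1 inactive.

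Levels are given as rescaled FPKM: the deposited FPKM (fragments per kilobase of transcript, scaled to library size) of the 43349 gene symbols that both tables share, with each embryo brought to a sum of 1000000. Changes are on the scale of log2(rescaled FPKM + 1), which understates the change of low genes. The late 2-cell libraries held 5727956 to 8916343 counts. Blastocyst counts were not used here, and the spacing of low FPKM values gave these 7 libraries depths of 0.978 to 1.06 times their stage mean, by a method with an error of up to 8.68% where totals were known. Blastocyst replicate 7 stood apart, with 7555 genes at 1 or more against 10078 to 11245 in the other 6. Its mean correlation with its own group was 0.839 against 0.900 to 0.920, and mitochondrial genes took 4.71% of its FPKM against 0.115% to 1.26%. Late 2-cell replicate 3 had 15699 genes at 1 or more, against 11481 to 13057 in the other 4. The stage changes described below whose call depended on either embryo are given with and without it. Leaving out either one moved the count of called members of a list by at most 3 in each direction.

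Chek1, the injected gene (chr9:36708482-36727065), stood at 281, 895, 1168, 307 and 506 rescaled FPKM in the late 2-cell embryos and at 12.8 to 23.8 (median 18.3) in the blastocysts. The groups did not overlap, and the log2 change was −4.86 ± 0.35 (SE), with an adjusted p of 1.13e-08 in limma. The R442Q zygotes had held 8121 to 10450 (median 9900), so the level was lower at each later stage. Injected and embryonic Chek1 transcripts share the symbol, and how far the authors' counting separates them is not given in the sources used here. The stage change of Chek1 in R442Q embryos differed from that in WT embryos by only 0.04 ± 0.53 (SE, log2; adjusted p = 0.98). The WT group means were 612 and 21.0 rescaled FPKM.

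Genes were tested where 5 or more of the 12 embryos reached a level of 1, which left 12704. Of these, 7765 passed an adjusted p of 0.05 in limma, which is 61.1% of those tested. The calls comprised 3031 genes higher in blastocysts (23.9% of the tested genes) and 4734 lower (37.3%). The embryos of the stages did not overlap for 4898 genes (38.6%), with 1659 higher (13.1%) and 3239 lower (25.5%). The minimum level fixed some of these calls. A gene under 1 in all 7 blastocysts, as 992 of the fallen genes were, could be tested only if all 5 late 2-cell embryos reached 1, so its fall without overlap was set by that rule. In the same way, 403 of the risen genes were under 1 in all 5 late 2-cell embryos and were tested only through the blastocysts. For all of these genes, such as Zp3, Gdf9, Obox3, Zscan4d, Cdx2, Gjb5 and Nanog, the levels are a description and the adjusted p adds no support. The list counts below include such genes. Leaving out blastocyst replicate 7 gave 3364 higher and 4670 lower, and leaving out late 2-cell replicate 3 gave 3189 and 4502. The median log2 change of all tested genes was −0.40, and it depended on the scaling, being −0.16 with factors from trimmed means (TMM) and 0.12 after quantile normalisation. Higher genes made up 39.0% of the calls, against 45.3% with TMM and 52.5% after quantile normalisation, where 4253 were higher and 3849 lower. The changes below are printed as fitted, with this shift not taken out. Fewer cells of a type and less RNA per cell cannot be told apart in whole embryos.

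**Figure D1:**
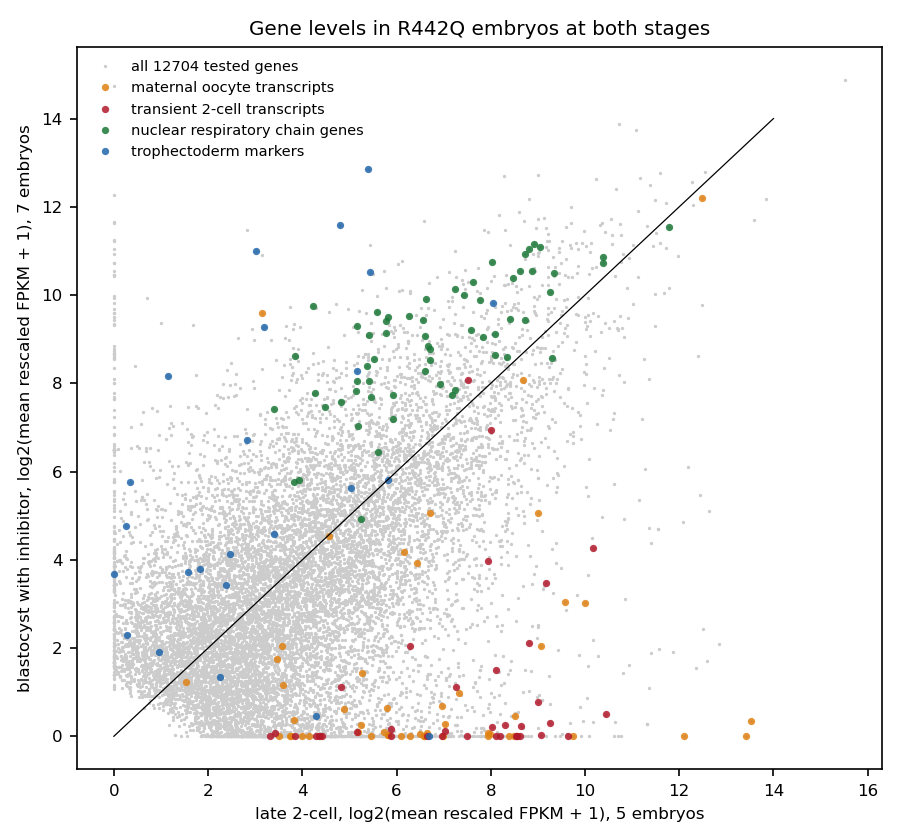
Mean level of each of the 12704 tested genes in R442Q embryos, as log2(mean rescaled FPKM + 1), with 5 late 2-cell embryos on the x axis and 7 inhibitor-treated blastocysts on the y axis; the line marks equal levels. Most maternal oocyte and transient 2-cell transcripts lie near 0 on the y axis, whereas nuclear respiratory chain genes and most trophectoderm markers lie above the line.

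The blastocysts held strong expression of trophectoderm genes that were low in the late 2-cell embryos. Of 24 tested members of the trophectoderm list, 15 rose, 2 fell and 7 did not pass, beside 23.9% and 37.3% of all genes. Of the 15, 2 were under 1 in all late 2-cell embryos and were tested only through the blastocysts. Of the 2 that fell, 1 was under 1 in all blastocysts and was tested only through the late 2-cell embryos. The median log2 change of the list was 2.19, against −0.40 for all tested genes. Krt8 and Krt18 encode the keratin pair of simple epithelia and lie side by side on chromosome 15. Krt8 stood at 1.07, 15.5, 11.1, 1.55 and 6.25 rescaled FPKM in the late 2-cell embryos and at 502 to 4195 (median 1922) in the blastocysts. All 7 blastocysts lay above all 5 late 2-cell embryos, with a log2 change of 8.14 ± 0.57 (SE; adjusted p = 9.63e-09). Krt18 stood at 6.36, 23.3, 42.6, 31.2 and 31.1 and then at 584 to 7352 (median 2577), again without overlap (6.68 ± 0.53, adjusted p = 3.78e-08).

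Transcription factors of the lineage followed different courses. Gata3, a trophectoderm transcription factor, stood at 0.866, 1.56, 0.207, 1.84 and 1.62 in the late 2-cell embryos and at 66.3 to 498 (median 264) in the blastocysts. It rose by 6.86 ± 0.45 (log2 ± SE, adjusted p = 3.88e-09) without overlap, although the zygotes had held 15.1 to 20.8. Cdx2, which specifies the trophectoderm, was listed at 0 in all 5 late 2-cell embryos and at 0.202 to 26.3 (median 12.2) in the blastocysts, with an adjusted p of 8.98e-04. Its lowest blastocyst was replicate 7 and its highest was replicate 1. Tfap2c, a further trophectoderm regulator that the oocyte also supplies, stood at 55.5, 29.7, 18.3, 13.1 and 41.5 and then at 25.9 to 79.3 (median 45.5). The groups overlapped and the change of 0.70 ± 0.37 did not pass (adjusted p = 0.117), but it passed under TMM scaling (1.01, adjusted p = 0.023) and without late 2-cell replicate 1 (0.94, adjusted p = 0.042). Fabp3, a fatty acid binding protein, reached 1123 to 16470 (median 6584) from 37.7, 17.7, 56.4, 71.6 and 22.7, the second largest rise of the list (7.25 ± 0.55, adjusted p = 2.26e-08). The 2 members that fell were Esx1, a homeobox gene of the later placenta, and Hand1. Esx1 stood at 16.9, 131, 206, 137 and 20.4 in the late 2-cell embryos and was listed at 0 in all 7 blastocysts (adjusted p = 2.9e-07). Hand1, named here after its values were seen, went from a mean of 18.5 to 0.364.

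The promoters of 3 of these risen genes are shown because the genes rose together from low levels. They are the 250 bases before the RefSeq start site (GRCm38.p6), with short letter patterns that DNA-binding factors recognise in capitals. The patterns searched on both strands were AGATAA for GATA factors, GCCNNNGGC for TFAP2 factors, GGAATG for TEAD factors and TATAAA for the TATA box, and no capitals below belong to more than 1 of them.
Krt8, chr15:102004343-102004592, minus strand: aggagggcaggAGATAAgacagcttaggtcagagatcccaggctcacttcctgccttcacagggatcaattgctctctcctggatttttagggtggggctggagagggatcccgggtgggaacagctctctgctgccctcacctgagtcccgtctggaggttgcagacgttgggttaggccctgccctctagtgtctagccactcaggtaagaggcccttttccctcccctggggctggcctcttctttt
Krt18, chr15:102027966-102028215, plus strand: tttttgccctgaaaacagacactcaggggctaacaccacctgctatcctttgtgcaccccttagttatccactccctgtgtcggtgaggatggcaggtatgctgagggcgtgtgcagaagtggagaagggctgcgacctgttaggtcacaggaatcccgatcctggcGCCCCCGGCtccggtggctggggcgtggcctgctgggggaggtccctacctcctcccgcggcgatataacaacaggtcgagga
Gata3, chr2:9878601-9878850, minus strand: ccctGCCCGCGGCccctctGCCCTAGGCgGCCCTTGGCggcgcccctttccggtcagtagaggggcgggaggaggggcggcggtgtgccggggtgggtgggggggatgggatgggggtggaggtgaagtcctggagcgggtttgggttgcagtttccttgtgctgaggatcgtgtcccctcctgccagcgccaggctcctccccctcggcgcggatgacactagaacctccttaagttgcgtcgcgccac
The Krt8 window held 1 AGATAA, 239 bases before the start. The Krt18 window held 1 GCCNNNGGC at 83 bases before the start, and the Gata3 window held 3, at 246, 231 and 221 bases. Neither GGAATG nor TATAAA occurred in these 3 windows. Of all 32851 promoters of this length, 9.99% held AGATAA, 13.7% held GCCNNNGGC, 12.6% held GGAATG and 12.4% held TATAAA. In the 2611 promoters of genes that rose, GCCNNNGGC occurred in 17.7%, against 19.7% of the 11636 promoters of all tested genes. AGATAA occurred in 6.89% against 6.28%. A match is a description of letters and not a measured binding site.

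Some markers of the inner cell mass rose as well. In the pluripotency and epiblast list, 10 of 22 tested members rose, 2 fell and 10 did not pass, beside 23.9% and 37.3% of all tested genes, with a median log2 change of 1.0. Nanog, a core pluripotency factor, stood at 0, 0, 0.207, 0.168 and 0.0808 in the late 2-cell embryos and at 30.4 to 106 (median 65.3) in the blastocysts. It rose in every blastocyst above every late 2-cell embryo (5.81 ± 0.34, adjusted p = 1.31e-09). Pou5f1, which encodes OCT4, stood at 18.9, 10.8, 34.4, 36.8 and 18.8 and then at 7.70 to 209 (median 117). Replicates 7 and 6 were the lowest blastocysts, at 7.70 and 32.2, and the groups overlapped. The change of 1.72 ± 0.66 passed at an adjusted p of 0.0346, and it no longer passed without late 2-cell replicate 1, 2 or 5 or without blastocyst replicate 1, 2, 3, 4 or 5, with adjusted p between 0.053 and 0.093. The zygotes had held 166 to 281 of Pou5f1, more than the late 2-cell embryos. Sox2, a further core factor, stayed at 0 to 1.14 and at 0 to 3.28 (median 1.36), with a change of 0.80 ± 0.39 that did not pass (adjusted p = 0.0895) but passed without late 2-cell replicate 3 (adjusted p = 0.042) or blastocyst replicate 5 or 7 (0.039 and 0.035).

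Dppa5a, a pluripotency-associated RNA-binding protein gene, stood at 1575, 1431, 1206, 2080 and 2205 and rose to 9949 to 20790 (median 15870), without overlap (3.14 ± 0.22, adjusted p = 7.68e-09). Klf5, a transcription factor of both blastocyst lineages, stood at 3.61, 5.64, 14.2, 2.16 and 12.1 and rose to 104 to 197 (median 167; 4.42 ± 0.38, adjusted p = 9.03e-08). The 2 members that fell, named after their values were seen, were Dppa4 (mean 495 to 194) and Fgf4 (29.0 to 1.17), the growth factor gene of the early epiblast. Without blastocyst replicate 7, 13 members of the list rose.

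Of 16 tested members of the primitive endoderm list, 8 rose, 3 fell and 5 did not pass, beside 23.9% and 37.3% of all tested genes, with a median log2 change of 1.17. Of the 8, 3 were under 1 in all late 2-cell embryos and were tested only through the blastocysts, and 5 further members did not reach the minimum level. Gata6, which starts the primitive endoderm programme, stood at 0.455, 0, 1.91, 1.13 and 0.173 and then at 8.16 to 30.4 (median 19.3). The groups did not overlap (3.59 ± 0.41, adjusted p = 2.01e-06). Dab2, an endocytic adaptor, stood at 17.7, 20.0, 33.0, 9.91 and 8.09 and rose to 113 to 528 (median 283), also without overlap (4.22 ± 0.41, adjusted p = 3.4e-07). Sox17, which acts after Gata6, stood at 0, 3.98, 8.61, 0 and 2.12 and then at 0.0842 to 39.3 (median 2.14), with a change that did not pass (0.94 ± 0.93, adjusted p = 0.398). Pdgfra, a receptor that marks these cells, ranged from 0 to 6.37 and from 0 to 19.4, and its change of 0.32 ± 0.81 did not pass either (adjusted p = 0.745). Among the 3 members that fell was Srgn, a secretory granule proteoglycan, from 146, 182, 85.2, 98.5 and 67.5 to between 0 and 30.5 (median 1.92; −4.91 ± 0.71, adjusted p = 2.36e-05).

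Of 29 junction and polarity genes, 18 rose, 3 fell and 8 did not pass, beside 23.9% and 37.3% of all tested genes. The median log2 change was 1.67, against −0.40 for all tested genes. For 2 of the 18, Gjb5 and Dsg2 (the latter named after its values were seen), the minimum level was passed only through the blastocysts, since both were listed at 0 in all late 2-cell embryos. Cdh1, which encodes E-cadherin, stood at 8.74, 13.7, 15.8, 6.43 and 14.4 and then at 23.7 to 54.4 (median 36.9), without overlap (1.61 ± 0.31, adjusted p = 3.5e-04). Cldn4, a tight junction claudin, stood at 0, 0.889, 1.18, 0 and 0 and rose to 25.7 to 132 (median 103; 6.0 ± 0.43, adjusted p = 1.38e-08). Dsp, the desmosomal plaque protein desmoplakin, rose from 0, 0.268, 0.955, 0.516 and 1.32 to 4.02 to 9.98 (median 6.51; 2.27 ± 0.35, adjusted p = 4.55e-05). Cldn4 and Dsp showed no overlap between the stages. Gjb5, a connexin of trophoblast gap junctions, was listed at 0 in all 5 late 2-cell embryos and at 23.7 to 157 (median 94.7) in the blastocysts (adjusted p = 4.94e-09). Dlg1, a basolateral scaffold, stood at 14.9, 70.4, 155, 68.4 and 86.1 and then at 131 to 452 (median 250). The groups overlapped in late 2-cell replicate 3, and the change passed (1.99 ± 0.49, adjusted p = 0.00225). Vil1, a microvillar actin bundler, fell from 27.5, 10.6, 28.5, 12.1 and 27.8 to a listed 0 in all 7 blastocysts (adjusted p = 3.59e-08), and the other 2 members that fell, named after their values were seen, were Pkp4 and Prkci.

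Genes for filling the cavity did not move as 1 group. Of 11 tested blastocoel fluid transport genes, 3 rose, 4 fell and 4 did not pass, a count close to the shares of all tested genes. Quantile normalisation gave 5 and 4. Aqp3, a channel for water and glycerol, stood at 0.122, 0.268, 18.2, 0 and 0.796 and then at 45.6 to 159 (median 92.3). Late 2-cell replicate 3 was far above the other 4, but all blastocysts were higher still (5.34 ± 0.63, adjusted p = 2.87e-06). Fxyd4, a regulator of the sodium pump, rose from 2.00, 0, 0, 2.68 and 0 to 22.5 to 195 (median 120; 5.90 ± 0.53, adjusted p = 1.63e-07). Atp1b1, a beta subunit of the pump, stood at 50, 53.6, 36.1, 21.4 and 56.9 and at 23.8 to 78.2 (median 67.4), a change of 0.37 ± 0.35 that did not pass (adjusted p = 0.38). Other beta subunit genes of the list, named after their values were seen, fell without overlap between the stages. The log2 change was −3.60 ± 0.54 for Atp1b2 (blastocyst mean 1.16, adjusted p = 3.32e-05), and Atp1b3 went from a mean of 214 to 34.4 (−2.62 ± 0.31, adjusted p = 2.69e-06). Aqp11, an intracellular aquaporin, fell from 129, 48.3, 193, 115 and 82.5 to between 0 and 3.18 (median 1.41; −5.76 ± 0.48, adjusted p = 6.85e-08). Of 15 tested Hippo pathway genes, which sense cell position, 3 rose, 5 fell and 7 did not pass, again close to the shares of all tested genes. Among those that fell were both adaptors of the LATS kinases: Mob1a from 93.0, 73.7, 85.6, 144 and 110 to 4.75 to 24.9 (median 13.8; −2.96 ± 0.39, adjusted p = 8.38e-06), and Mob1b from a mean of 44.2 to 2.38 (−3.85 ± 0.45, adjusted p = 2.54e-06). After quantile normalisation 5 Hippo genes rose and 4 fell.

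**Figure D2:**
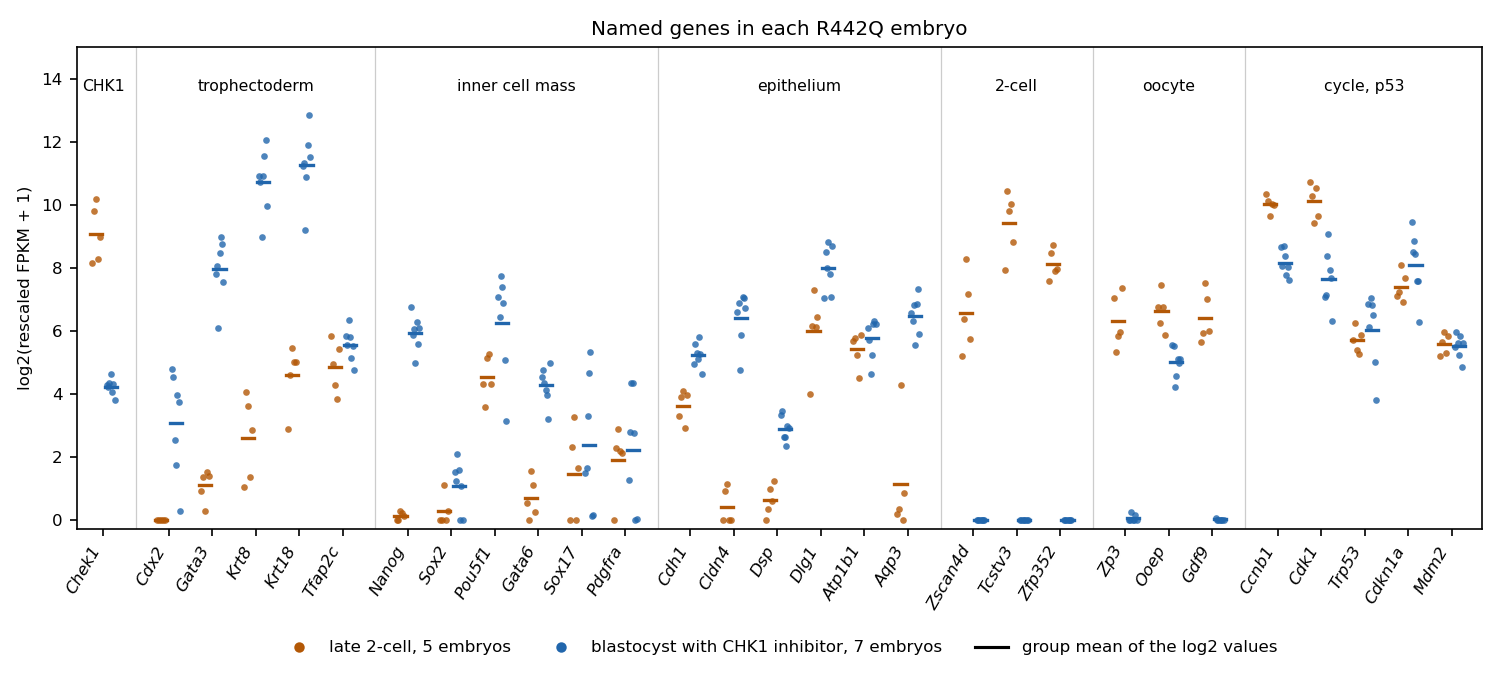
Level of named genes in each R442Q embryo, as log2(rescaled FPKM + 1) on the y axis, for 5 late 2-cell embryos (orange) and 7 inhibitor-treated blastocysts (blue); bars are group means of the log2 values. Points of the stages overlap for Tfap2c, Sox2, Pou5f1, Sox17, Pdgfra, Dlg1, Atp1b1, Trp53, Cdkn1a and Mdm2, and they do not meet for the other genes shown.

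Members of the list of short-lived 2-cell transcripts were nearly all lower in the blastocysts. Of 36 tested transient 2-cell transcripts, 35 fell and 1 did not pass, beside 37.3% of all tested genes that fell, and the 35 did not overlap between the stages. The minimum level itself fixed this for the 22 members under 1 in all 7 blastocysts. Of the other 14 members 13 fell, against 3742 of 11712 genes likewise left over all tested. At 0 in all 7 blastocysts were 12 members. The exception was Pramel6 (means 181 and 267), named after its values were seen, which rose past the threshold under TMM, upper quartile and quantile scaling. The median log2 change was −6.50 with a pseudocount of 1 and −8.85 with 0.1. Summed over the list, the late 2-cell embryos held 6983 to 13880 rescaled FPKM and the blastocysts 343 to 631. Zscan4d, a telomere-linked marker of the 2-cell state, stood at 35.9, 81.5, 310, 142 and 52.5 and was listed at 0 in all 7 blastocysts (adjusted p = 1.13e-08). Tcstv3 stood at 239, 1384, 893, 1041 and 451 and was likewise listed at 0 in each blastocyst (adjusted p = 3e-11). Zfp352, a zinc finger gene of the 2-cell stage, stood at 190, 355, 423, 235 and 248 and again at 0 in each (adjusted p = 7.58e-12). Obox3, an oocyte-specific homeobox family member, fell from 326, 411, 268, 494 and 457 to at most 0.0494 (−8.57 ± 0.29, adjusted p = 2.16e-12), and AF067063 from 1399, 1643, 1211, 1261 and 1465 to at most 2.75 (−10.13 ± 0.35, adjusted p = 3.07e-12). Many of these genes belong to families of near-identical copies, so the split of reads between members is uncertain. The zygotes had held 6.79 to 45.6 of Zscan4d, 28.9 to 63.5 of Tcstv3 and 2.90 to 23.3 of Zfp352, below every late 2-cell embryo for Tcstv3 and Zfp352 and overlapping them for Zscan4d.

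The promoter of Zfp352 is shown because it carries a repeated letter pattern. The capitals mark GGATTA, the core recognised by OBOX and related homeodomain proteins, here read as its reverse complement.
Zfp352, chr4:90218570-90218819, plus strand: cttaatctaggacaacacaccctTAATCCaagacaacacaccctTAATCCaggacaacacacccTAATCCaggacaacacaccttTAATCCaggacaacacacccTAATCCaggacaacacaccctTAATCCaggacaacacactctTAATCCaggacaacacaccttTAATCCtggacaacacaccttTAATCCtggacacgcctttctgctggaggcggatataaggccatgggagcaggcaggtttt
The window held 9 matches in tandem, the nearest 61 bases and the farthest 227 bases before the start, each followed by a similar stretch of bases. Of all 32851 promoters of this length, 6.25% held at least 1 GGATTA. The pattern occurred in 6.44% of the 4226 promoters of genes that fell and in 5.57% of those of all tested genes.

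Of 23 tested genes tied to early genome activation in general, 7 rose, 9 fell and 7 did not pass, near the 23.9% and 37.3% of all tested genes. Without late 2-cell replicate 3, 7 rose and 7 fell, and TMM scaling gave 9 that rose and 6 that fell. Hspa8, a constitutive chaperone and early activation marker, stood at 500, 390, 201, 261 and 569 and rose to 2204 to 4641 (median 3968; 3.36 ± 0.27, adjusted p = 3.66e-08). Zscan5b, a zinc finger gene, went the other way, from 380, 348, 190, 278 and 504 to a listed 0 in all 7 blastocysts (adjusted p = 7.23e-12).

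Transcripts of the maternal list were plentiful in the late 2-cell embryos, and most were near 0 in the blastocysts. Of 52 tested maternal oocyte transcripts, 48 fell, 1 rose and 3 did not pass, beside 37.3% of all tested genes that fell. The median log2 change was −5.64, and −8.44 with a pseudocount of 0.1, with 17 of the 52 listed at 0 in all blastocysts. The minimum level fixed the fall of the 27 members under 1 in all blastocysts, and of the other 25 members 21 fell, against 3742 of 11712 genes likewise left over all tested. Their summed level was 43130 to 46690 in 4 late 2-cell embryos and 26230 in replicate 5, against 3436 to 9558 in the blastocysts. Zp3, a zona pellucida glycoprotein, stood at 131, 38.8, 55.7, 60.9 and 163 and then at 0 to 0.179 (median 0; −6.24 ± 0.39, adjusted p = 2.78e-09). Gdf9, an oocyte growth factor, stood at 48.4, 60.1, 179, 126 and 62.0 and then at 0 except for 0.0395 in blastocyst replicate 1 (−6.40 ± 0.38, adjusted p = 1.42e-09). Omt2a and Omt2b, an oocyte-expressed pair whose similar copies may share reads, were the most abundant members that fell. Omt2a stood at 13090, 13730, 11920, 13060 and 7083 and then at 0 to 1.83 (median 0; −13.25 ± 0.31, adjusted p = 5.07e-14), while Omt2b, at 5730 to 13170, was listed at 0 in all 7 blastocysts (adjusted p = 7.38e-15). The R442Q zygote means of Omt2a and Omt2b were 6294 and 6301, below the late 2-cell means of 11780 and 10860.

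Members of the subcortical maternal complex, which the oocyte assembles beneath its membrane, did not all fall to the same extent. Ooep stood at 107, 75.2, 174, 107 and 57.4 and then at 17.4 to 45.6 (median 33.1), without overlap (−1.62 ± 0.32, adjusted p = 4.52e-04). The zygotes had held 553 to 1006 of it. Khdc3, another member and the only riser of the list, was named after its values were seen: its mean went from 7.81 to 776. The 3 members that did not pass were Figla, Ybx2 and Dppa3, the last at means of 5730 and 4729, also named after their values were seen. Mos, the kinase that holds the egg in meiosis, stayed under the minimum level for a test, with 0.444, 0, 3.90, 30.6 and 0 in the late 2-cell embryos and 0 in the blastocysts.

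The genes of mitotic entry, on which CHK1 acts, were mostly lower in blastocysts. Of 29 tested, 17 fell, 2 rose and 10 did not pass, where 37.3% of all tested genes fell and 23.9% rose. Quantile normalisation gave 14 that fell and 5 that rose. The median log2 change was −1.76, against −0.40 for all tested genes. Cdk1, the mitotic kinase, stood at 1665, 1226, 677, 1476 and 790 and then at 78.2 to 540 (median 201), without overlap (−2.46 ± 0.40, adjusted p = 8.17e-05). Its cyclin partner Ccnb1 stood at 1285, 1111, 798, 1029 and 1002 and then at 195 to 411 (median 262), also without overlap (−1.85 ± 0.22, adjusted p = 3.65e-06). Ccna2, the cyclin of S phase and G2, fell from 647, 558, 279, 425 and 668 to 29.0 to 94.7 (median 45.8; −3.19 ± 0.32, adjusted p = 5.06e-07). Wee2, the oocyte form of the kinase that inhibits CDK1, was at 250, 308, 320, 370 and 133 and listed at 0 in all blastocysts (adjusted p = 1.72e-11). The 2 that rose, named after their values were seen, were Ccnb2 (mean 55.1 to 259) and Fzr1 (1.72 to 8.16). In the zygotes Cdk1 had been at 123 to 202 and Ccnb1 at 1360 to 1683.

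Checkpoint kinases and their partners were divided, with 7 of 21 higher, 8 lower and 6 not passing, against 23.9% and 37.3% of all genes. Quantile normalisation gave 8 higher and 7 lower. Chek2, which relays signals from DNA breaks, stood at 73.6, 65.8, 118, 50.6 and 77.8 and rose to 662 to 1794 (median 881; 3.74 ± 0.27, adjusted p = 1.12e-08). Atrip, the partner that brings the kinase ATR to stalled replication, rose from 28.4, 35.0, 64.8, 38.7 and 29.8 to 194 to 721 (median 367; 3.28 ± 0.32, adjusted p = 3.74e-07). Neither gene overlapped between the stages. Chek1 fell, but injected and embryonic Chek1 transcripts share the symbol, so no opposite regulation can be read from this. Of 37 DNA replication genes, 17 rose, 9 fell and 11 did not pass, beside the same shares of all genes, with a median log2 change of 0.93. Those that rose, with 2 examples named after their values were seen, included Mcm10, a replication initiation factor, from 7.55 to 20.3 in the late 2-cell embryos to 54.8 to 91.0 in the blastocysts (2.42 ± 0.28, adjusted p = 2.18e-06), and Lig1, which encodes the ligase that joins Okazaki fragments and overlaps Zswim9 on the opposite strand, from a mean of 11.2 to 93.9 (3.26 ± 0.40, adjusted p = 4.89e-06). Neither overlapped between the stages. Among those that fell, Orc6, a subunit of the origin recognition complex, went from 628, 772, 665, 714 and 630 to 36.0 to 129 (median 75.9; −3.19 ± 0.27, adjusted p = 8.5e-08). Cdc45, part of the replicative helicase, fell from 212, 137, 156, 171 and 265 to 30.2 to 62.0 (median 35.5; −2.23 ± 0.25, adjusted p = 2e-06).

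Of 33 tested members of the p53 list, 8 rose, 12 fell and 13 did not pass, close to the 23.9% and 37.3% of all tested genes, with 11 that rose and 11 that fell when blastocyst replicate 7 was left out. Trp53, which encodes p53, stood at 51, 75, 40.7, 37.3 and 57.3 and at 12.8 to 130 (median 89.4), a change of 0.32 ± 0.50 that did not pass (adjusted p = 0.592). Cdkn1a, the p53-induced inhibitor p21, stood at 136, 147, 267, 120 and 204 and at 75.9 to 690 (median 343). Its change of 0.69 ± 0.44 did not pass (adjusted p = 0.184), but without blastocyst replicate 7, the lowest, it was 0.996 and passed (adjusted p = 0.0176). Mdm2, the ligase that degrades p53, stood at 35.9, 48.4, 60.7, 38.4 and 55.6 and at 27.8 to 60.5 (median 47.7; −0.08 ± 0.26, adjusted p = 0.818). Its relative Mdm4 fell from 699, 1526, 1314, 678 and 966 to 28.2 to 65.4 (median 51.6; −4.33 ± 0.28, adjusted p = 3.13e-09), and Gadd45a, a stress-induced growth arrest gene, from 20.1, 42.7, 52.3, 38.5 and 74.0 to at most 2.54 (−5.02 ± 0.45, adjusted p = 1.38e-07). In the BCL2 family and caspases, 6 of 18 rose, 6 fell and 6 did not pass, near the shares of all tested genes. Bcl2l10, an oocyte survival factor, fell from 548, 256, 286, 622 and 117 to at most 2.69 (−8.02 ± 0.47, adjusted p = 1.39e-09), and Bik, a pro-death member, from 20.9, 10.1, 51, 24.2 and 14.5 to a listed 0 in all 7 blastocysts (adjusted p = 7.71e-08).

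Most nuclear genes of the respiratory chain, proteasome and ribosome rose. Of 61 nuclear genes of the respiratory chain and ATP synthase, 54 rose and 7 did not pass, beside 23.9% of all tested genes that rose, with a median log2 change of 2.19. Their sum went from 12580 to 19220 in the late 2-cell embryos to 35060 to 55780 in the blastocysts, without overlap. Ndufa3, a complex I subunit, stood at 5.43, 13.6, 28.1, 29.7 and 12.2 and then at 730 to 1183 (median 815; 5.71 ± 0.34, adjusted p = 1.43e-09). Ndufs6, another complex I subunit, stood at 48.1, 59.6, 46.8, 52.7 and 60.3 and then at 439 to 680 (median 583; 3.37 ± 0.19, adjusted p = 8.08e-10). After removal of trends with transcript length and GC content, 57 of the 61 rose and 1 fell.

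Of 33 proteasome genes, 21 rose, 2 fell and 10 did not pass, beside 23.9% and 37.3% of all tested genes, with a median log2 change of 1.01. The core subunit Psmb3 rose from 140, 166, 117, 246 and 159 to 956 to 1458 (median 1319; 3.0 ± 0.20, adjusted p = 5.4e-09), and Psma7 from 155, 164, 270, 108 and 152 to 1011 to 1477 (median 1188; 2.88 ± 0.21, adjusted p = 1.8e-08). Of 76 cytoplasmic ribosomal protein genes, 62 rose, 2 fell and 12 did not pass, beside the same shares, with a median of 1.30, and 4 fell without late 2-cell replicate 3. Their sum was 32820 to 67090 in the late 2-cell embryos and 106300 to 143400 in the blastocysts. Rpl3 rose from 175, 194, 126, 151 and 219 to 845 to 1241 (median 1145; 2.70 ± 0.18, adjusted p = 6.66e-09) and Rpl13 from 614, 359, 190, 348 and 581 to 2608 to 3962 (median 3343; 3.06 ± 0.26, adjusted p = 6.62e-08). None of Ndufa3, Ndufs6, Psmb3, Psma7, Rpl3 and Rpl13 overlapped between the stages. Ribosomal protein genes have many processed copies, so their reads may be split.

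Of 22 glycolysis and glucose transport genes, 6 rose, 4 fell and 12 did not pass, beside 23.9% and 37.3% of all tested genes. After removal of the length and GC trends, 3 were higher and 5 lower, whereas quantile normalisation gave 10 higher and 4 lower. Slc2a3, the glucose transporter GLUT3, stood at 2.62, 3.09, 8.52, 5.10 and 11.1 and rose to 43.4 to 210 (median 116; 3.86 ± 0.44, adjusted p = 1.93e-06). Slc2a1, the transporter GLUT1, stood at 2.29, 48.2, 9.02, 9.24 and 0.554 and then at 8.77 to 62.7 (median 26.0). Late 2-cell replicate 2 lay above 5 of the 7 blastocysts. The change of 1.81 ± 0.72 passed at an adjusted p of 0.0386, but not without late 2-cell replicate 1, 3, 4 or 5 or blastocyst replicate 2, 3, 4 or 7 (0.052 to 0.131). With the length and GC trends removed the adjusted p in limma was 0.271. The change passed in 14 of 26 alternatives, the replicate block not counted. Ldhb, a lactate dehydrogenase subunit rich in oocytes, fell from 187, 199, 534, 205 and 221 to at most 2.03 (median 0.739; −7.17 ± 0.39, adjusted p = 5.93e-10).

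Of 16 DNA methylation and demethylation genes, 7 rose, 3 fell and 6 did not pass, beside the same shares of all tested genes. Tdg, a glycosylase of active demethylation, rose from 0, 0, 5.54, 0 and 3.67 to 27.9 to 56.7 (median 37.1; 4.36 ± 0.51, adjusted p = 2.5e-06), and Dnmt3b, a de novo methyltransferase, from 0.189, 0.548, 6.02, 0.811 and 2.87 to 14.8 to 58.4 (median 29.2; 3.72 ± 0.48, adjusted p = 6.88e-06). Dnmt3l, its cofactor, stood at 63.3, 50.8, 44.5, 74.9 and 54.0 and at 15.1 to 85.7 (median 51), a change of −0.29 ± 0.35 that did not pass (adjusted p = 0.495). Among 22 tested imprinted genes, 5 rose, 9 fell and 8 did not pass, near the 23.9% and 37.3% of all tested genes, and quantile normalisation gave 10 and 4. Phlda2, a maternally expressed placental growth gene, fell from 1279, 340, 537, 1088 and 616 to 0 to 23 (median 5.17; −7.35 ± 0.70, adjusted p = 3.13e-07). Slc38a4, a paternally expressed amino acid transporter, rose from 4.27, 0.719, 17.3, 1.78 and 1.54 to 42.6 to 172 (median 99.5; 4.65 ± 0.52, adjusted p = 1.73e-06). H19, an imprinted noncoding RNA, was listed at 0 in all late 2-cell embryos and at 0 to 0.486 in the blastocysts, too low for a test.

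**Figure D3:**
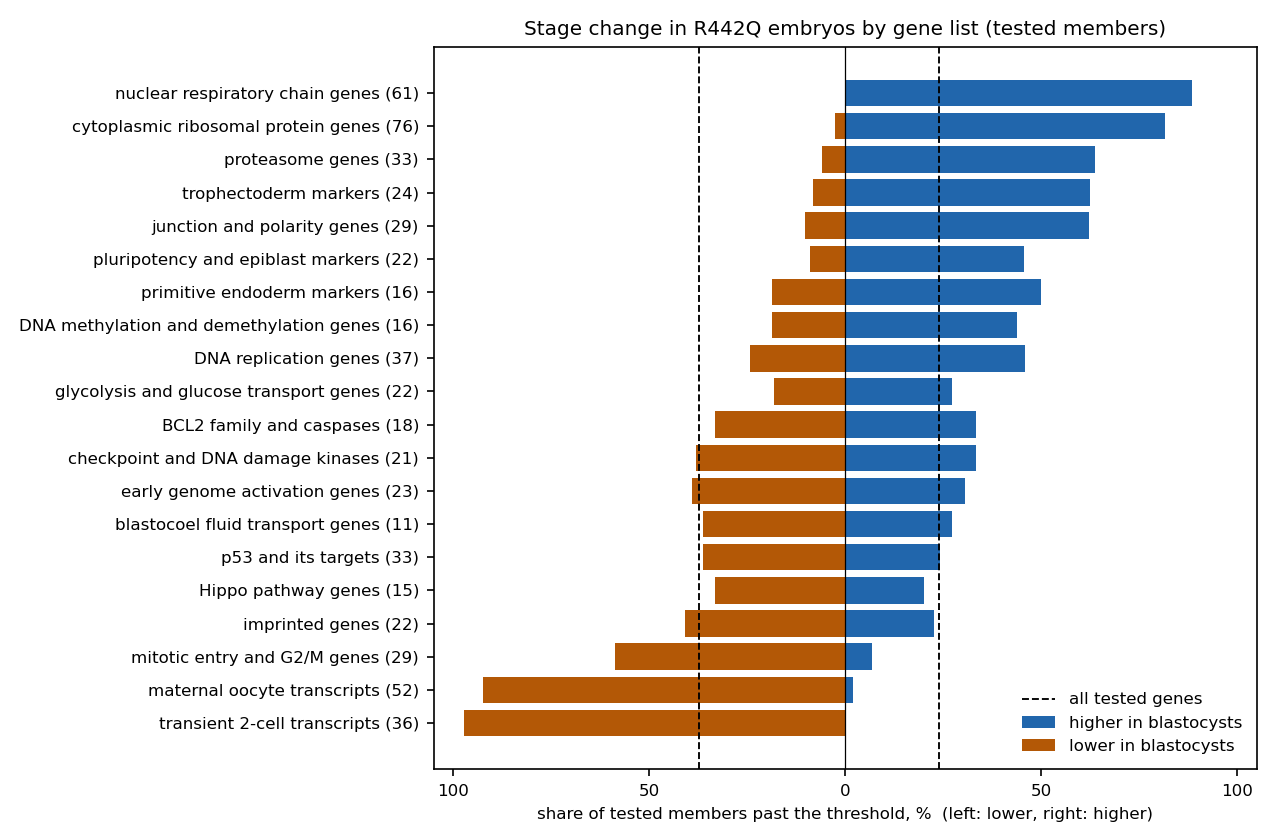
Share of the tested members of each gene list that were lower (left, orange) or higher (right, blue) in R442Q blastocysts than in R442Q late 2-cell embryos at an adjusted p under 0.05, in percent, for lists with at least 10 tested members, whose number is in brackets; dashed lines are the shares of all tested genes, 37.3% and 23.9%. Respiratory chain and ribosomal protein genes reach farthest to the right, and maternal and transient 2-cell transcripts farthest to the left.

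Markers of other cells were examined too, and most did not reach the minimum level. Of 20 cumulus and granulosa cell markers, 2 reached the minimum level, and both fell: Amhr2, a hormone receptor, by 1.65 on the log2 scale with overlap (adjusted p = 0.0143) and Tnfaip6, a matrix protein of the expanding cumulus, by 2.88 without overlap (adjusted p = 2.79e-05). The list summed to 20.8 to 119 rescaled FPKM in the late 2-cell embryos, highest in replicate 3, and to 4.66 to 43.7 in the blastocysts, with 7 and 12 members listed at 0 in all embryos of the stage. Of 11 sperm and spermatid markers, only Ldhc was testable, and it fell from 31.2, 40.5, 87.4, 47.7 and 59.2 to at most 5.73 (−4.26 ± 0.48, adjusted p = 1.89e-06). The sum of that list was 31.6 to 116 and then 2.29 to 15. Their part in the other results was not tested.

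Extreme changes were ranked among genes that passed, did not overlap between the stages, averaged at least 50 at the higher stage and averaged above 0 at the lower. The 6 largest rises included 3 loci that are not protein-coding. Gm10443, a processed pseudogene, stood at 0, 0, 39.3, 0 and 0 and then at 1122 to 2347 (9.80 ± 0.75, adjusted p = 2.65e-08). Gm25072, a short noncoding RNA, and Gm12953, annotated as antisense to Tmem69, rose by 9.52 ± 0.63 and 8.23 ± 0.34. The coding genes were Krt8, Adh1, an alcohol dehydrogenase, and Fbp2, a gluconeogenic phosphatase. Adh1 stood at 0, 0, 3.14, 0 and 0 and then at 74.0 to 2631 (median 697; 8.53 ± 0.83, adjusted p = 3.71e-07). Fbp2 stood at 1.13, 0, 8.46, 0 and 1.52 and then at 338 to 853 (median 700; 8.11 ± 0.49, adjusted p = 1.8e-09). Late 2-cell replicate 3 was the highest of its stage for Gm10443, Gm25072, Adh1 and Fbp2.

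The 6 largest falls were Omt2a and 5 loci annotated as transcripts to be experimentally verified or as long noncoding RNA: Gm42887, Gm44183, Gm37110, Gm36958 and Gm37724. Gm42887 stood at 5846, 5705, 8887, 4955 and 5395 and then at 0 to 7.42 (−11.39 ± 0.52, adjusted p = 7.45e-11), after 18330 to 25080 in the zygotes. Gm44183 and Gm37110 carried the same value in every embryo, from 1895, 2318, 4095, 2052 and 2458 to at most 1.12, although they lie on chromosomes 2 and 1, so they count as 1 measurement (−11.04 ± 0.30, adjusted p = 1.95e-13). All 5 were highest in late 2-cell replicate 3.

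Length, base composition and earlier levels were set beside the calls. The longest annotated transcript had a median of 2490 bases for genes that rose, 2913 for those that fell and 2911 for all tested genes. Median GC content was 51.2%, 47.0% and 49.2%. Among genes under 500 bases 41.6% rose and 31.8% fell, whereas among those of at least 4000 bases 17.3% rose and 39.6% fell. With the trends in length and GC removed, 7557 genes passed, of which 6579 also passed without the correction. Of the 3031 genes that rose, 890 (29.4%) had an R442Q zygote mean under 1 and 743 (24.5%) a late 2-cell mean under 1. In 1369 (45.2%) the zygotes were above the late 2-cell embryos, as for Gata3 and Pou5f1. Of the 4734 that fell, 1834 (38.7%) had a blastocyst mean under 1 and 526 were listed at 0 in all 7 blastocysts. In 1873 (39.6%) the zygotes were higher than the late 2-cell embryos, while 665 (14%) had a zygote mean under 1.

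Fewer genes reached a level of 1 in the blastocysts than in the late 2-cell embryos. The number at a level of at least 1 was 13040 ± 1612 (SD, n = 5) at the late 2-cell stage and 10300 ± 1267 (SD, n = 7) in blastocysts. The difference of −2737 had an exact two-sided permutation p of 0.00126, the smallest that the 792 splits can give (0.0025 adjusted over 2 measures). At a level of 0.1 it was −2513 (exact permutation p = 0.0126) and at 5 it was −1813 (exact permutation p = 0.00126). These numbers depend on depth, which could not be compared between the stages, and on the separately made tables. The 100 most abundant genes took 35.8% ± 1.17 (SD, n = 5) and then 39.3% ± 3.40 (SD, n = 7) of the sum, with an exact permutation p of 0.0366 (0.0366 adjusted). That difference did not pass when any 1 late 2-cell embryo was left out (exact permutation p 0.0606 to 0.103), and for the 10 most abundant genes it was 0.453 percentage points (exact permutation p = 0.806). For the 1000 most abundant it was 6.83 percentage points (exact permutation p = 0.00126).

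Trophectoderm expression differed widely among the blastocysts. The summed trophectoderm list was 15360, 15110, 3507, 9396, 16750, 35000 and 19960 rescaled FPKM in replicates 1 to 7, lowest in replicate 3 and highest in replicate 6. Fabp3, Krt18 and Krt8 made up most of it in replicate 6, at 16470, 7352 and 4195. The pluripotency and epiblast list, which is mostly Dppa5a (9949 to 20790), summed to between 10790 in replicate 7 and 22420 in replicate 5, and the primitive endoderm list to between 495 in replicate 3 and 1050 in replicate 5. In replicate 3 Krt8, Krt18, Gata3 and Cldn4 were each at the lowest blastocyst level, at 502, 584, 66.3 and 25.7. Pou5f1 and Tfap2c were at their highest there, at 209 and 79.3, but Dppa5a was at its lowest, at 9949, and Nanog at its median, 65.3. In replicate 6 Krt8 and Krt18 were at their highest, at 4195 and 7352. Gata6 was at its lowest there, at 8.16, but Dab2 of the same list was at its highest, at 528. Xist, the noncoding RNA of X inactivation, was at 10.9 to 21.2 in replicates 1, 2, 3 and 7 and at 0 to 0.608 in replicates 4, 5 and 6. The Y-linked list ran opposite, at 27.9 to 59.8 in replicates 4, 5 and 6 and at 1.06 to 2.14 in the others. Of the 7 Y-linked genes, 2 could be tested. Kdm5d, a histone demethylase, stood at 32.1, 24.1, 48.8, 22.0 and 31.3 at the late 2-cell stage and at 0.199 to 2.38 in the blastocysts (−4.34 ± 0.38, adjusted p = 1.29e-07). Every R442Q zygote held 87.2 to 116.5, with a mean of 102. Its level thus did not divide the zygotes or late 2-cell embryos as the Y-linked list divided the blastocysts. Whether the Kdm5d reads came from the Y-linked copy was not tested, and embryo sex was not matched between the stages. Uty, a relative of Kdm5d, changed by −0.15 (adjusted p = 0.807).

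**Figure D4:**
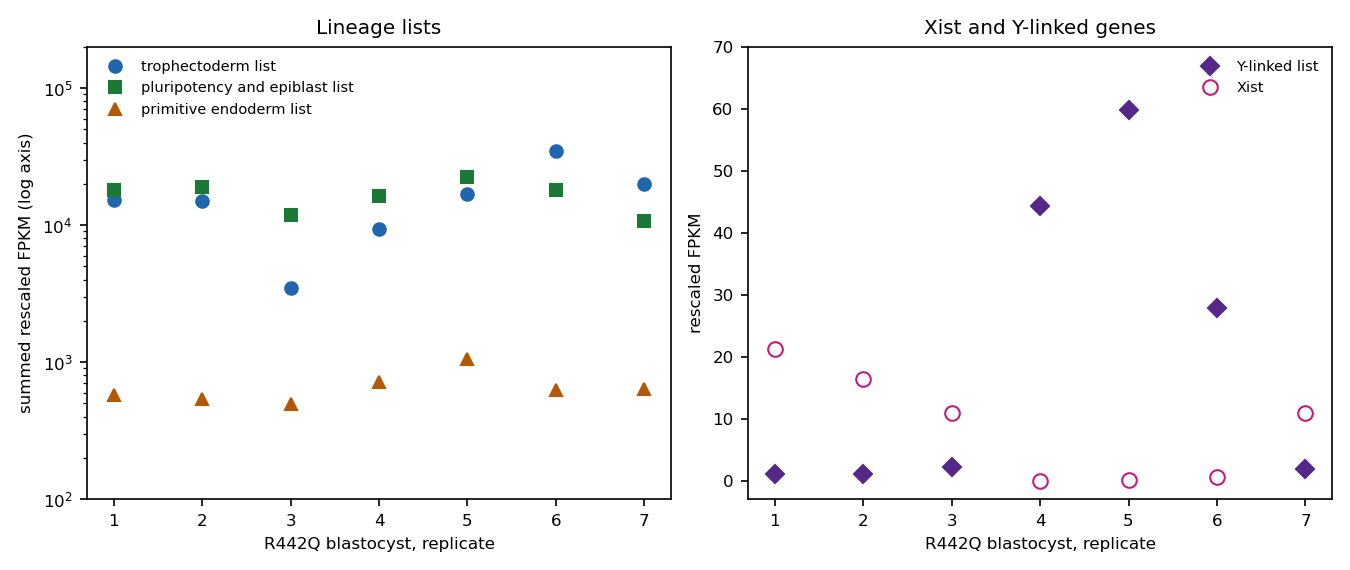
Left, summed rescaled FPKM (log axis) of the trophectoderm, pluripotency and epiblast, and primitive endoderm lists in each of the 7 R442Q blastocysts; right, rescaled FPKM of Xist and of the summed Y-linked list in the same embryos. The trophectoderm sum is lowest in replicate 3 (3507) and highest in replicate 6 (35000), and each embryo has either Xist or the Y-linked list high.

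Whether any of this change belonged to R442Q was tested against the WT embryos, which went through the same stages with the same inhibitor. Genes were tested where 4 or more of these 23 embryos reached a level of 1. Of the 16291 tested, 173 had a stage change that differed between the genotypes at an adjusted p under 0.05 in limma (1.06%), and 2499 did at an unadjusted p under 0.05. The change was more positive in R442Q for 131 genes (0.804%) and more negative for 42 (0.258%). The number depended on single embryos: it was 422 without R442Q late 2-cell replicate 3, 342 without R442Q blastocyst replicate 7, 102 to 115 without R442Q blastocyst replicate 1, 3, 4 or 5, and 108 without WT blastocyst replicate 4. Without rescaling of the deposited FPKM, 163 passed, 76 more positive and 87 more negative, so that the share of positives went from 75.7% to 46.6%. In 167 of the 173 (96.5%) the genotypes were farther apart at the late 2-cell stage than in the blastocysts, with median log2 gaps of 2.13 and 0.171. These genes were selected for a difference between the stages, and over all 16291 tested genes the share was 71.6%, with median gaps of 0.54 and 0.24. Among the 173, 46 were under 1 in all blastocysts of both genotypes and passed the minimum level only through late 2-cell embryos, so that their larger gap there was fixed by the choice of genes. Of the other 127, 121 had the larger gap at that stage (95.3%), against 67.8% of the 14135 such genes tested. All 131 with the more positive change were lower in R442Q than in WT at the late 2-cell stage, as were 0 of the 42 with the more negative change. Where the gap was larger at that stage, for 126 of the 131 and 41 of the 42, the sign of the selected difference fixed this. For 73 of the 173 the changes of the genotypes did not share a sign. This counts a change of 0 in 1 genotype, as for Gm16556 and Tmem246, and changes close to 0. The 173 were selected because the changes differed, and the share over all tested genes was not computed.

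Since 1.06% of all tested genes passed, a list without a call is at the background share. The 6 list members that passed were Ooep, Mdm2, Chek2 and Ndufs6 and, named after their values were seen, Bcl2l2 and Gapdh. Mdm2 differed by 1.96 ± 0.39 (log2 ± SE, adjusted p = 0.0139): its WT mean went from 138 to 35.1 while its R442Q mean stayed at 47.8 and 45.7. Ooep differed by −2.39 ± 0.43 (adjusted p = 0.00715), with WT means of 26.6 and 46.3 beside R442Q means of 104 and 32.4. Chek2 rose in R442Q from a mean of 77.1 to 1058 and in WT from 111 to 542, a difference of 1.55 ± 0.39 at an adjusted p of 0.0482 that passed in 9 of 35 alternatives (the replicate block not counted), with adjusted p up to 0.103. Ndufs6 rose more in WT (means 18.1 and 580) than in R442Q (53.5 and 564), by 1.81 on the log2 scale (−1.81 ± 0.39, adjusted p = 0.0241), but not past the threshold with the length and GC trends removed (−1.31, adjusted p = 0.149) or without WT late 2-cell replicate 2 (−1.66, adjusted p = 0.055).

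The largest positive differences with a mean of at least 10 in a group were those of Gm29216, Tmppe, Gm10800 and Sp6. Gm29216, an unprocessed pseudogene, stood at 0 to 254 in R442Q late 2-cell embryos and at 2774 to 3897 in WT ones. It stood at 2303 in R442Q blastocyst replicate 7, where mitochondrial genes took 4.71% of FPKM, against 104.5 to 330 in the others. Gm10800 stood at 48.0 in R442Q blastocyst replicate 4 and at most at 6.64 in the others. Sp6, an epithelial zinc finger factor, had a WT late 2-cell mean of 34.6 and stood at 1.74, 0, 5.6, 0 and 0 in R442Q late 2-cell embryos, and the blastocyst means were 0.0159 in R442Q and 0.112 in WT (4.19 ± 0.54, adjusted p = 3.17e-04). No blastocyst of either genotype reached 1, so Sp6 was tested only through its late 2-cell embryos and these values are a description. Tmppe, a phosphoesterase gene that overlaps Glb1 on the same strand, had a WT mean of 43.2 and stood at 0.211, 1.43, 3.15, 3.56 and 5.04 in R442Q (4.73 ± 0.87, adjusted p = 0.00801). The most negative were Tmsb4x, Nup62cl, Gm15056 and Gm5941. Gm5941 stood at 26.7, 84.7, 83.3, 147 and 86.4 in R442Q late 2-cell embryos against a WT mean of 3.99 (−4.23 ± 0.54, adjusted p = 3.17e-04), and Gm15056 at 47.5, 145, 118, 67.7 and 90.2 against 4.72 (−4.37 ± 0.60, adjusted p = 6.05e-04). Both were listed at 0 in all R442Q blastocysts, and Gm5941 reached at most 1.67 in WT blastocysts. Gm15056 was also listed at 0 in all WT blastocysts, so that it too was tested only through late 2-cell embryos. Tmsb4x, the actin-binding thymosin beta 4, spanned 54.1 to 3719 among R442Q blastocysts and differed by −5.41 ± 1.35 (adjusted p = 0.0478), which passed in 12 of 35 alternatives. Nup62cl passed in 15 of the 35, with adjusted p up to 0.125, Gm29216 in 26, with adjusted p up to 0.0952, and Gm10800 in 34.

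**Figure D5:**
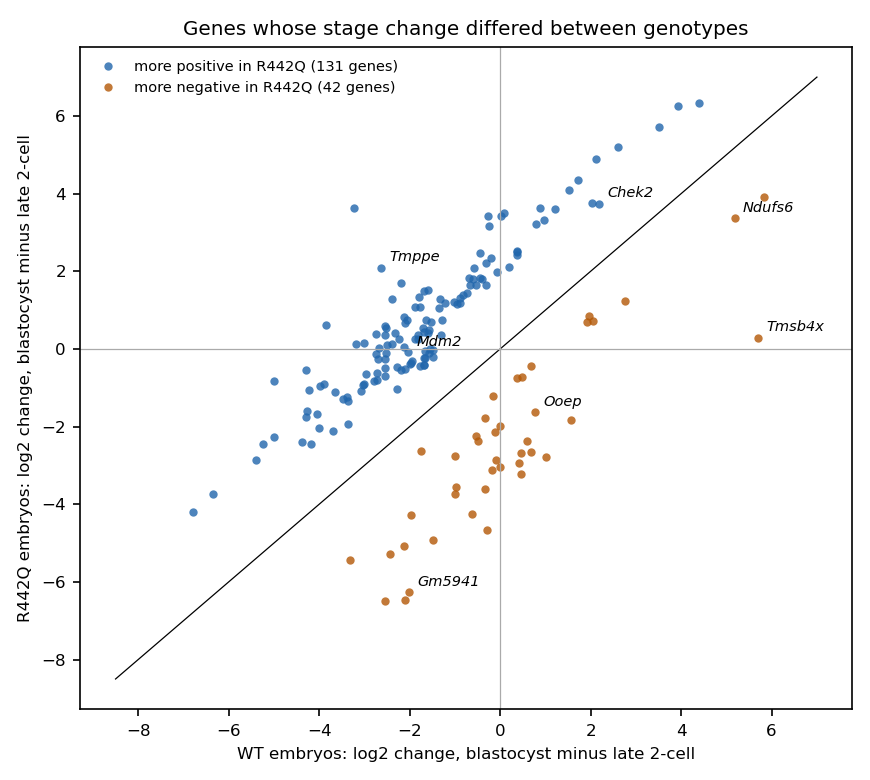
Log2 change from late 2-cell embryo to inhibitor-treated blastocyst in WT embryos (x axis, 4 and 7 embryos) and in R442Q embryos (y axis, 5 and 7 embryos) for the 173 genes selected because these changes differed at an adjusted p under 0.05; the diagonal marks equal change. The 131 points above it are more positive in R442Q and the 42 below it more negative, with none near the line because of the selection.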

How the data were processed

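Single mouse embryos were profiled by SMART-seq2 with Tn5 tagmentation on a HiSeq X-10, per the labels' protocols. RSEM and the build mm10 are named in the submitters' processing notes. Annotation, aligner, versions and use of strand are not given in the sources used here. The deposited FPKM values were computed by the authors for each stage in a table of its own. The deposited estimated counts of the late 2-cell and zygote tables were used here only as library totals. The tables held 49686 (late 2-cell) and 51734 (blastocyst) symbols, of which 43349 were shared, with 89.7% to 97.4% of each embryo's FPKM. The 37 mitochondrial symbols, listed only for blastocysts, were left out, and each embryo was rescaled to a sum of 1000000. Because the tables were normalised separately, every level set across stages depends on this rescaling.

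Log2(rescaled FPKM + 1) was tested in limma 3.58.1 (R 4.3.3) with a mean-variance trend and Benjamini-Hochberg adjustment over all tested genes at 0.05, in a fit of the R442Q groups. The difference from WT was an interaction contrast in a fit of 4 groups. Library measures were compared by an exact permutation test over 792 splits. The scripts were tested on simulated data. Alternatives covered pseudocount, filter, scaling (TMM factors from edgeR 4.0.16), weights, length and GC trends, test, replicate block and leaving out each embryo. Genes and lists were chosen with earlier results of these data known. Named genes were anchors of each process, the 6 largest rises and falls, up to 2 members of each list with the smallest p and the 4 most positive and negative differences from WT. Same-numbered embryos of the stages had correlations of −0.044 to 0.012 in their deviations, so numbers do not pair them. Genes on opposite strands at 1 locus cannot be told apart without strand, and reads of near-identical copies may be split. Gene models came from GENCODE M21 and promoters from RefSeq (GRCm38.p6).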

Additional observations from a re-analysis of the deposited data

Results flagged for a closer look

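In 16 of 109 groups of embryos examined, 1 embryo lay farther from the others than a gap test allows, where chance gives about 1 in 20. Both numbers count Gm44183 and Gm37110, which hold the same values, as separate genes. For Gm10443, Adh1 and Gdf9 the other embryos were all at 0. Any value above 0 would have been flagged there, so the 1 in 20 does not apply to these. Late 2-cell replicate 3 was the high embryo for Sox2 at 1.14 rescaled FPKM, Aqp3 at 18.2, Gm10443 at 39.3, Adh1 at 3.14 and Gm42887 at 8887. In that embryo 15699 genes reached a level of 1. Late 2-cell replicate 1 was low for Pdgfra, at 0 against 3.32 to 6.37, and for the summed trophectoderm list, at 336 against 662 to 810. Late 2-cell replicate 5 was low for Omt2a, at 7083, and for the summed maternal list, at 26230 against 43130 to 46690. Blastocyst replicate 7 stood apart with 7555 genes at 1 or more, 4.71% of FPKM in mitochondrial genes and Dnmt3l at 15.1 against 42.4 to 85.7. Blastocyst replicate 4 held 1.83 of Omt2a and 1.12 of Gm44183 and of Gm37110, and blastocyst replicate 1 held 0.0395 of Gdf9 where the other 6 were at 0.

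The stage change differed between R442Q and WT embryos, by the interaction contrast, for 10 named genes beside Chek2 and Ndufs6. Those with the more positive log2 change in R442Q were Mdm2 (1.96), Gm29216 (6.84), Tmppe (4.73), Gm10800 (4.46) and Sp6 (4.19). Those with the more negative change were Ooep (−2.39), Tmsb4x (−5.41), Nup62cl (−4.38), Gm15056 (−4.37) and Gm5941 (−4.23). The differences of Ooep, Mdm2, Tmppe, Sp6, Gm15056 and Gm5941 passed under all 35 alternatives run beside the replicate block. Sp6 and Gm15056 were tested only through late 2-cell embryos, so their passes add no support. Gm5941, at 0 in all R442Q blastocysts and at most 1.67 in WT ones, also rested on its late 2-cell levels. That of Nup62cl passed under 15 of these, Tmsb4x under 12, Gm29216 under 26 and Gm10800 under 34.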

How the results depend on the processing

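The number of genes that changed between the stages, 7765, ranged from 5867 with a filter at 5, which tests fewer genes, to 8998 without a filter, and from 7376 to 8034 when 1 embryo was left out. The number whose change differed from WT, 173, was 87 with a pseudocount of 0.1, 517 with 5, 367 after quantile normalisation (249 more positive, 118 more negative) and 102 to 422 when 1 embryo was left out. Upper quartile scaling gave 85 more positive and 45 more negative. The difference in the share of the 100 most abundant genes was 2.50 to 4.04 percentage points when 1 embryo was left out, and 0.453 for the 10 and 6.83 for the 1000 most abundant. Some changes that did not pass the threshold reversed, and the cause was not tested. Mdm2 was 0.24 under TMM, 0.33 under upper quartile, 0.26 under quantile, 0.17 without rescaling and 0.094 with length and GC trends removed, and −0.17 to 0.034 when 1 embryo was left out. Dnmt3l was 0.023 under TMM, 0.12 under upper quartile and 0.085 under quantile. Uty was 0.061, 0.12 and 0.62 under those scalings, 0.0071 without rescaling, 0.20 without length and GC trends, and −0.41 to 0.28 when 1 embryo was left out. Trp53 was −0.46 without length and GC trends. When 1 embryo was left out, Pdgfra was −0.15 to 0.69 and Tmsb4x −0.088 to 0.92. With the replicate block, 7755 genes changed between the stages, 128 changes differed from WT, Mdm2 was 0.036 and Dnmt3l 0.00084, and Sox2, Sox17, Pdgfra, Trp53 and Cdkn1a passed, but the numbers do not pair the embryos. Blastocyst depth in counts was not used here, so no interval for low levels can be given.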
